A study of Sus scrofa with 36 samples.

Results

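DEFB1, the gene of porcine beta-defensin 1, was followed in the thyroid glands of 36 pigs. It is 1 of the 11146 named genes with a tested probe, that is, a probe well above background in at least 5 of the 6 pigs of a group. The probes that the scanner files name DEFB1 or beta-defensin 1 were taken, which gave 1 of the 60305 probes on the array. A further probe that the files leave without a name carried the same 60-mer and the accession of the same transcript, so both were described, and they are called the first and the second DEFB1 spot. DEFB1 was selected on the breed differences of its own intensity in these same arrays, between LW and CR pigs and between F1 pigs and the mean of both, and therefore all breed differences of DEFB1 are given as a description with no test. The response to temperature played no part in that choice and was tested.

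The pigs were castrated growing males, 12 Creole (CR), 12 Large White (LW) and 12 crosses of Large White and Creole (F1), and within each breed 6 were labelled 24 °C and 6 were labelled 30 °C. All were kept at 24 °C at first, and the 30 °C pigs were slaughtered after up to 5 days of heat, which the protocol text gives as 32 °C, while the 24 °C pigs were slaughtered before it. Total RNA of each gland was labelled with Cy3 and hybridized to its own Agilent 1-colour array. The groups are named by the labelled temperature. Temperature cannot be told apart from the later slaughter. The pigs of a breed came from a few litters that the labels do not name, so breed cannot be told apart from family. The gland was ground whole, and a lower signal from fewer cells of a type cannot be told apart from less RNA per cell.

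Beta-defensins are small, cationic, cysteine-rich peptides that are secreted by epithelia, held in shape by disulfide bonds, and able to damage the membranes of bacteria and fungi. Several of them also attract immune cells through chemokine receptors. In humans, DEFB1 is the member that many epithelia make without prior infection, whereas others, such as the human beta-defensin encoded by DEFB4A, are induced by microbes and cytokines. The thyroid is mainly built of follicles, whose epithelial cells make thyroglobulin and thyroid hormone.

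Which transcript a spot can capture depends on its sequence, and the probe of DEFB1 is shown with those of 3 other beta-defensins on the array because a relative with a similar sequence could add to its signal. In the DEFB1 sequence the capitals mark the longest run that it shared on the same strand with any probe other than its second spot. In the other 3 the capitals mark the longest run that each shared with the DEFB1 probe.
DEFB1: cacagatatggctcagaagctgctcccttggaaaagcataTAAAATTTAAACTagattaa
PBD-2: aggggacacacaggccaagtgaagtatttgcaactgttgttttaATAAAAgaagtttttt
PBD-3: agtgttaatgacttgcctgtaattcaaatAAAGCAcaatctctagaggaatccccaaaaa
DEFB104-like: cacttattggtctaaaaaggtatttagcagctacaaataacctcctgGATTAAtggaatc

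The longest run shared by DEFB1 and any unrelated probe on the same strand was 13 bases, of 60, and 5 probes held that run. On the opposite strand the longest run was 15 bases. The 3 other beta-defensin probes shared no run over 6 bases with it. Only probes were compared, so whether the full transcript of a relative holds a stretch like the DEFB1 probe was not examined. DEFB1 lies at chr15:38076057-38077899 in the RefSeq annotation of the Sscrofa11.1 assembly, a gene of 1843 bases. The files map no probe to the genome, so whether the 60-mer lies in coding sequence or in an untranslated region is not given here. The RefSeq table gives the symbol DEFB1 to a second gene as well, the one the array names PBD-2, which has no placed chromosome in that table. It is kept apart here under the name PBD-2.

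All signals below are log2 intensities after quantile normalization, so a difference of 1 is a doubling. DEFB1 was well above background, as judged by the scanner software, on all 36 arrays. In the CR pigs labelled 24 °C the lowest, median and highest values were 7.14, 7.74 and 7.92. In the CR pigs labelled 30 °C they were 6.98, 7.30 and 8.21. These groups overlapped over most of their range. In the F1 pigs the lowest, median and highest values were 7.34, 7.64 and 8.14 at 24 °C, and 7.39, 7.61 and 8.32 at 30 °C. The F1 groups overlapped with each other and with both CR groups. In the LW pigs they were 8.97, 10.42 and 12.12 at 24 °C, and 9.04, 10.45 and 11.84 at 30 °C. The LW groups covered nearly the same range, and every LW pig lay above every CR and F1 pig.

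**Figure D1:**
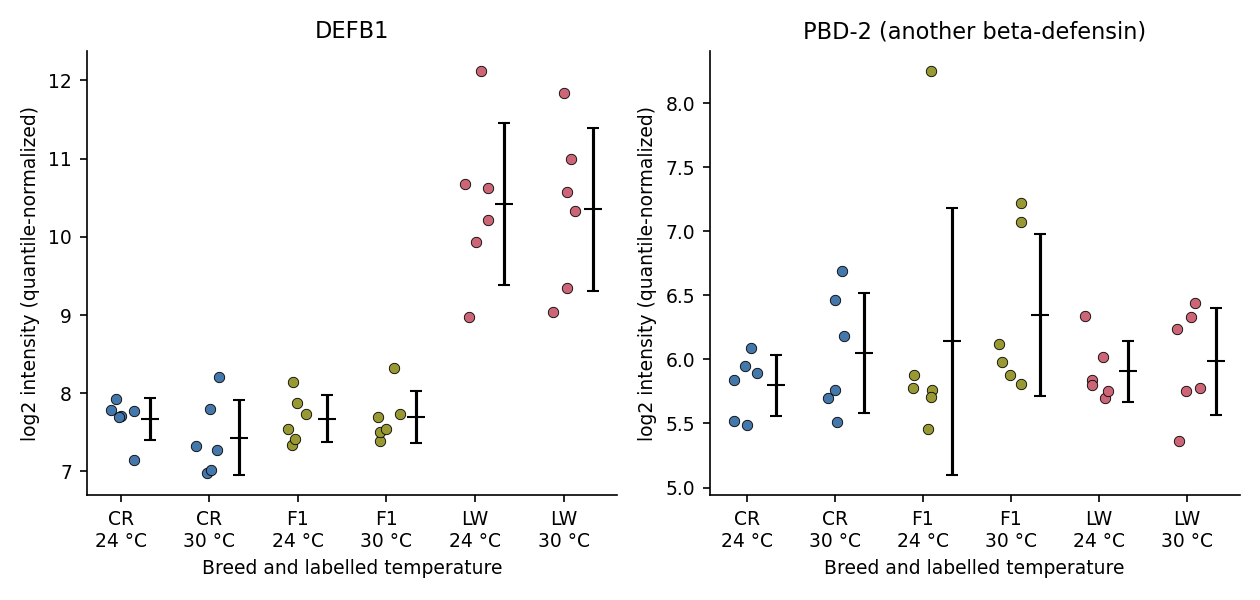
The log2 intensity of DEFB1 (left) and of PBD-2 (right) is plotted for each of the 36 pigs by breed and labelled temperature, with the mean and SD of each group of 6 as a bar beside the points. The vertical axes have different ranges. For DEFB1 the 12 LW pigs lie between 8.97 and 12.12 and the 24 other pigs between 6.98 and 8.32, and for PBD-2 the groups overlap, with 1 F1 pig at 8.25.

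The mean over both temperatures was 7.55 ± 0.39 (SD, n = 12) in CR, 7.69 ± 0.30 (SD, n = 12) in F1 and 10.39 ± 0.99 (SD, n = 12) in LW. LW exceeded CR by 2.84 on the log2 scale (SE 0.25), which is 7.14-fold. F1 exceeded CR by 0.13 (SE 0.25, from a spread shared over the breeds), less than its SE, so the order of CR and F1 is not settled. F1 lay below LW by a difference of -2.70 (SE 0.25) and below the mean of LW and CR by a difference of -1.29 (SE 0.22). On a line on which CR stands at -1 and LW at 1, the F1 mean of DEFB1 stood at -0.906. For background, 298 probes passed limma for LW against CR with a difference of at least 1, in either direction. This count includes both DEFB1 spots. Their own calls are not read as a test, because DEFB1 was chosen on this contrast. Of the 298, 24 stood as near to CR as the first DEFB1 spot or nearer, with that spot itself counted. Another 20 stood farther out on the far side of CR. The median of the 298 stood at -0.167.

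The LW pigs also varied more among themselves than the others did. Their DEFB1 levels spread over 3.15 on the log2 scale, a linear range of 503 to 4450 intensity units, or 8.86-fold. The 24 CR and F1 pigs together spread over 1.34, which is 2.53-fold. The widest step between LW pigs in order of level was 0.84, with 10 pigs below it and 2, at 11.84 and 12.12, above it. High and low LW pigs occurred at both temperatures. The gap between the lowest LW pig and the highest of the others was 0.65.

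A separation of this kind was rare on the array. No spot was missing for 46162 of the tested probes, and 4 of these, or 0.00867%, had all LW pigs above all CR and F1 pigs, and both DEFB1 spots were among these. The other 2 were a probe of KANK1, a regulator of the actin cytoskeleton, with LW minus CR at 0.69, and a probe with no gene name, at 0.83. Among the named genes DEFB1 ranked at 2 by the size of the excess of LW over CR. Since the gene was chosen for this pattern, the counts and the rank only place it on the array.

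The second spot gave the same order. Its mean was 7.70 ± 0.48 (SD, n = 12) in CR, 7.85 ± 0.32 (SD, n = 12) in F1 and 10.72 ± 1.02 (SD, n = 12) in LW, and LW exceeded CR by 3.02 (SE 0.27). Over the 36 pigs the Pearson correlation between the spots was 0.998, with 0.984 among the CR pigs alone, 0.962 among the F1 pigs and 0.999 among the LW pigs. The second spot read 0.21 higher on average, with an SD of 0.12 over pigs. Its excess was 0.21 to 0.45 among LW pigs, and among CR pigs it lay between -0.03 and 0.32. Over the array, 1480 pairs of tested probes carried identical 60-mers, and their spot differences had a median SD of 0.09. Both spots were hybridized with the same labelled RNA, so they show how well an intensity is read and are not independent pigs. The SD of 0.99 among LW pigs was several times the SD of the spot difference.

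**Figure D2:**
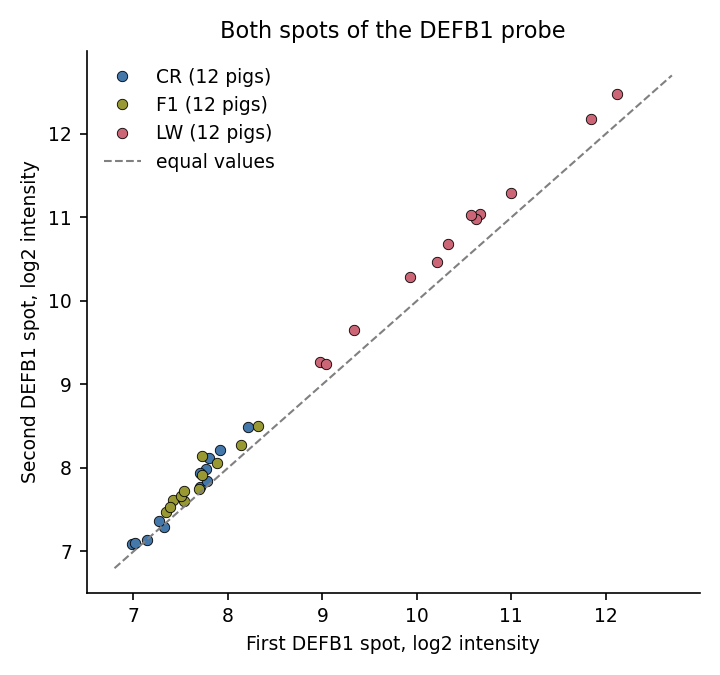
The log2 intensity of the second DEFB1 spot is plotted against that of the first for each pig, coloured by breed, with a dashed line of equal values. The correlation is 0.998, and the 12 LW pigs form the upper part without overlapping the others and lie 0.21 to 0.45 above the line.

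The arrays lay on 5 slides, and slides 1 to 4 held pigs of all 6 groups. LW minus CR was 3.13 on slide 1, 2.87 on slide 2, 3.03 on slide 3 and 2.22 on slide 4. On slide 5, which held 4 arrays with 1 CR pig, it was 2.85. On each slide the lowest LW pig lay above the highest CR and F1 pig. The breed difference of DEFB1 was thus found within every slide.

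**Figure D3:**
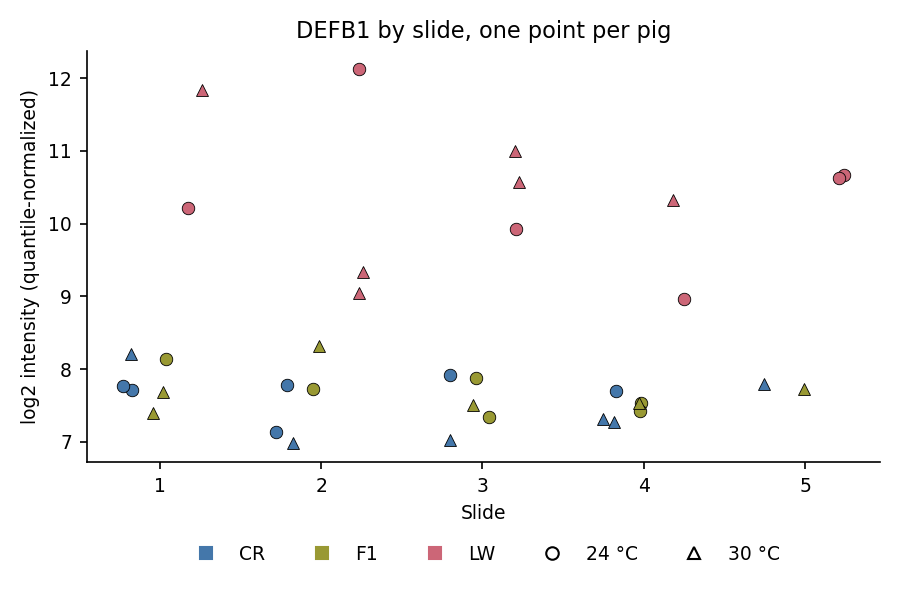
The log2 intensity of DEFB1 (first spot) is plotted by slide for each pig, with circles for 24 °C and triangles for 30 °C and a colour for each breed. The LW pigs lie above the CR and F1 pigs on all 5 slides, with LW minus CR between 2.22 on slide 4 and 3.13 on slide 1.

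The effect of temperature on DEFB1 was tested with limma across all 46222 tested probes, with Benjamini-Hochberg adjustment, and an adjusted p under 0.05 is called. Over the breeds, 545 probes, or 1.18%, were called for heat. DEFB1 was not among them. Its mean was 8.59 ± 1.46 (SD, n = 18) at 24 °C and 8.50 ± 1.5 (SD, n = 18) at 30 °C. The change was -0.09 (SE 0.21, 95% interval -0.51 to 0.32, limma adjusted p = 0.953). The interval therefore reached from 0.701-fold to 1.25-fold. A permutation test over the pigs within breeds, with 100000 resamples and 2-sided, gave p = 0.667, or 0.933 after adjustment over the 4 temperature comparisons.

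Within the breeds the means at both temperatures also lay close together. In CR the change from 24 to 30 °C was -0.23 (SE 0.37, limma adjusted p = 0.999), in F1 it was 0.02 (SE 0.37, limma adjusted p = 0.992) and in LW it was -0.07 (SE 0.37, limma adjusted p = 1). The background was 0.387% of probes called in CR and 0.383% in F1, and in LW 0 probes, or 0%, were called by limma while 1852 had an unadjusted p under 0.05. The exact permutation tests over all 924 splits, 2-sided, gave p = 0.307 in CR, p = 0.933 in F1 and p = 0.922 in LW, each 0.933 after adjustment over the 4. The interval in LW ran from -0.81 to 0.68, with a spread shared over the breeds. With the 12 LW arrays alone, whose spread is wider, the SE was 0.52 and the interval -1.18 to 1.05, or 0.44-fold to 2.07-fold. The spread was narrower in CR and F1. With the 12 arrays of the breed alone the SE was 0.20 in CR and 0.17 in F1, and neither change was called. The interaction of breed and temperature was not called for DEFB1 (limma adjusted p = 1, moderated F test), and over the array it was called for 0 probes, or 0%, with 2157 at an unadjusted p under 0.05. The second spot gave -0.09 (SE 0.22) for heat over breeds, limma adjusted p = 0.96.

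The other beta-defensins were then examined, to see whether the family as a whole followed the pattern. Of the 21 probes that the files name as beta-defensins or as their likes, 19 were not DEFB1, and 12 of these were tested. The probes of DEFB110, DEFB114, DEFB125 and BD123, 1 of 3 probes of DEFB129 and 1 of 2 probes of a DEFB108-like gene were too dim to test. For LW against CR 5965 probes, or 12.9%, were called over the array, and of the 12 beta-defensin probes 1 was called. This was the DEFB104-like probe, whose CR pigs averaged 6.70, F1 pigs 6.89 and LW pigs 7.07, with a difference of 0.37 (SE 0.10, limma adjusted p = 0.0147). None of the 12 was called for heat, where their changes lay between -0.10 and 0.25. Some of the 12 lay near background and were not well above it on every array. Each PBD-2 spot passed on 33 arrays, the dimmer DEFB123-like probe on 24 and the tested DEFB108-like probe on 27. Small differences can go unseen at so dim a signal. The missing calls at these probes therefore show only that no breed difference as large as that of DEFB1 was read there.

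PBD-2, the porcine beta-defensin that shares its RefSeq symbol with DEFB1, was not called. The CR pigs averaged 5.92, the F1 pigs 6.24 and the LW pigs 5.95, and LW minus CR was 0.02 (SE 0.22, 95% interval -0.42 to 0.47, limma adjusted p = 0.963). In the F1 pigs labelled 24 °C its lowest, median and highest values were 5.46, 5.77 and 8.25, and the highest came from 1 pig that stood apart from the other 5. Its second spot gave LW minus CR at -0.10 (SE 0.21, limma adjusted p = 0.833). PBD-3 averaged 6.97 among CR pigs and 7.04 among both F1 and LW pigs, with a difference of 0.07 (SE 0.09, limma adjusted p = 0.731). The probes named for their likeness to DEFB103A, DEFB109, DEFB122 and DEFB123 of other mammals and the tested probes of DEFB129 and the DEFB108-like gene had LW minus CR between -0.13 and 0.07, and none was called.

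Cathelicidins, the other main family of antimicrobial peptides in pigs, showed no call over their 3 tested genes, beside 12.9% of all tested probes called for LW against CR and 1.18% for heat. The median of LW minus CR was 0.08 in these 3 and 0 over all tested probes. NPG4, a protegrin, had LW minus CR at -0.44 (SE 0.40, limma adjusted p = 0.534), PR39 at 0.08 and PMAP-36 at 0.09.

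Of 24 tested genes for other antimicrobial proteins, 1 was higher and 4 were lower in LW than in CR, beside 7.17% and 5.73% of all tested probes. Their median difference was -0.01. PGLYRP1, which binds bacterial peptidoglycan, was higher in LW, at 0.39 (SE 0.09, limma adjusted p = 0.00311). SLPI, a secreted protease inhibitor of mucosal surfaces, was lower, at -1.34 (SE 0.21, limma adjusted p = 4.33e-05), and all 7 of its probes were called. LYZ, lysozyme, was lower by a difference of -0.84 (SE 0.24, limma adjusted p = 0.0181). LCN2, which binds bacterial siderophores, differed by -0.49 and RBP4, a carrier of retinol, by -0.54, both lower in LW. Of the tested probes, 3 of 4 were called for PGLYRP1 and 2 of 4 for RBP4. ANG counted as not called because its brightest probe was not, at 0.32 (SE 0.12, limma adjusted p = 0.0628). All 4 of its probes were higher in LW and 3 were called. For heat, 1 of the 24 was called, with 0.876% of all tested probes called lower. This was BPI, a neutrophil protein that binds bacterial endotoxin, with a change of -1.68 (SE 0.35, limma adjusted p = 0.00588).

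**Figure D4:**
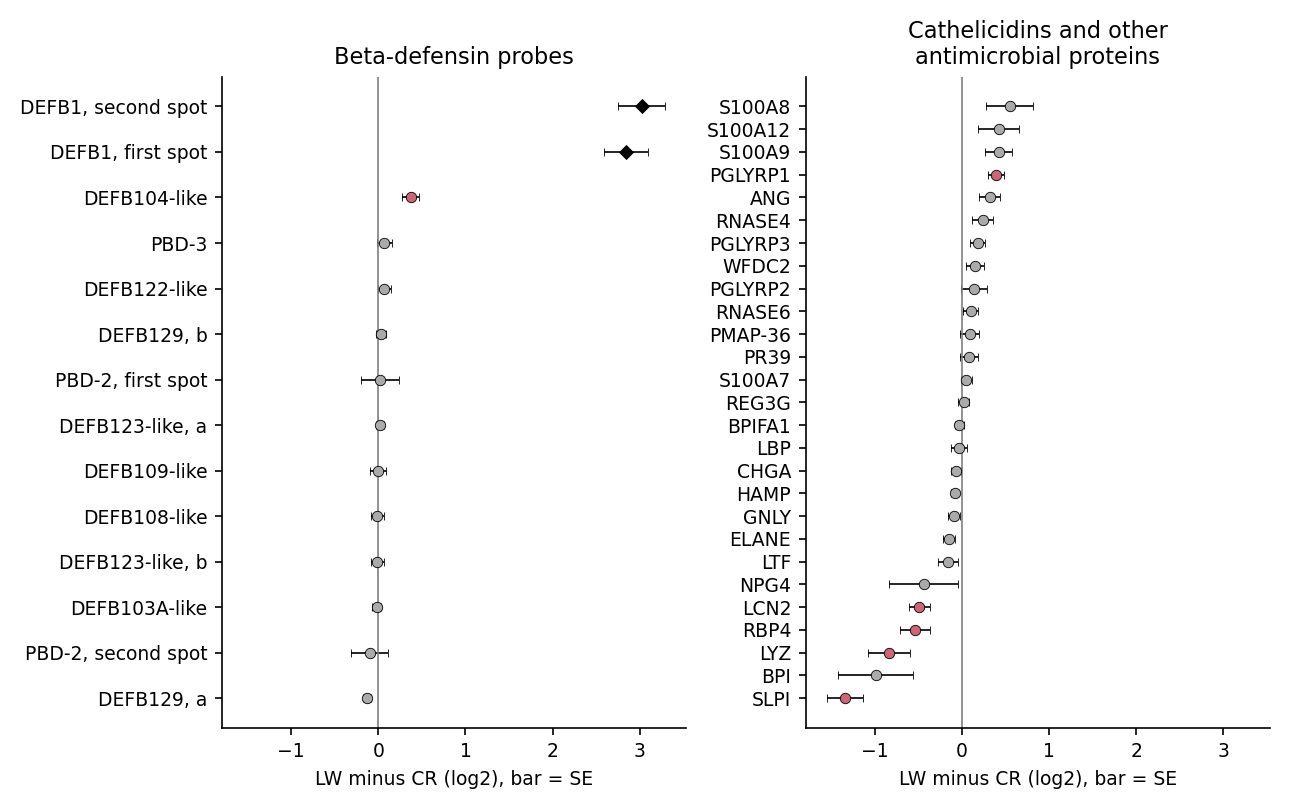
LW minus CR on the log2 scale with its SE is plotted for the tested beta-defensin probes (left; letters a and b mark different probes) and for the tested cathelicidins and other antimicrobial proteins (right, the brightest probe of each gene). Red points passed limma at an adjusted p under 0.05 and grey points did not. The black diamonds are the DEFB1 spots, whose differences are given without a test. DEFB1 stands at 2.84 and 3.02 and the other genes between -1.34 and 0.55.

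Genes of the pathways around beta-defensins fell into 2 lists. Of 30 tested genes for defensin receptors and innate sensing, 0 were called for heat by limma, while for LW against CR 1 was higher and 2 were lower, beside 7.17% and 5.73% of all tested probes, with a median of -0.05. TLR7, a sensor of single-stranded RNA, was higher in LW, at 0.45 (SE 0.15, limma adjusted p = 0.0398). TRAF6, an adaptor of Toll-like receptor signalling, differed by -0.53 (SE 0.11, limma adjusted p = 0.00119) and NFKB1, a subunit of the transcription factor NF-kappa-B, by -0.22 (SE 0.07, limma adjusted p = 0.047). Calls are those of the brightest probe of a gene. Of the tested probes of TRAF6, 1 of 2 was called, and of NFKB1 1 of 4, while RELA with 3 of 4, MYD88 with 2 of 3 and IKBKB with 2 of 4 counted as not called. Of 10 tested genes that regulate DEFB1 in other settings or act in thiol and disulfide exchange, 1 was higher and 4 were lower in LW, beside 7.17% and 5.73% of all tested probes, and 0 were called for heat by limma. GLRX, a glutaredoxin, was higher at 0.48 (SE 0.15, limma adjusted p = 0.0241). RXRA, a nuclear receptor, was lower at -0.31, and PDIA3, a protein disulfide isomerase, was lower at -0.30, each with 1 of 2 tested probes called.

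The genes that lie next to DEFB1 were compared to see whether the breed difference ran along the chromosome. Of the 10 nearest named protein-coding genes on each side in the RefSeq order, 13 had a tested probe. The next genes on one side, SPAG11 and SPAG11B, which encode epididymal proteins with beta-defensin-like parts, both had LW minus CR at -0.02. On the other side WDR17, the nearest measured gene, was at 0.01. Of the 13, 5 were called, all higher in LW, beside 7.17% of all tested probes called higher. ANGPT2, an angiopoietin, stood at 0.51 (SE 0.11, limma adjusted p = 0.00166), ARHGEF10 at 0.25, XKR5 at 0.24, DCTD at 0.23 and AGA, a lysosomal enzyme of glycoprotein breakdown, at 0.21. DEFB1 was chosen for its breed difference, so the smaller differences of its neighbours do not show whether a difference ran along the chromosome. The nearest measured genes, SPAG11 and WDR17, were not called. GPM6A, which lies between DEFB1 and WDR17, had no probe. Within the LW pigs the correlations of the 13 with DEFB1 lay between -0.61 for XKR5 and 0.35 for AGA, as a description over 12 pigs.

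**Figure D5:**
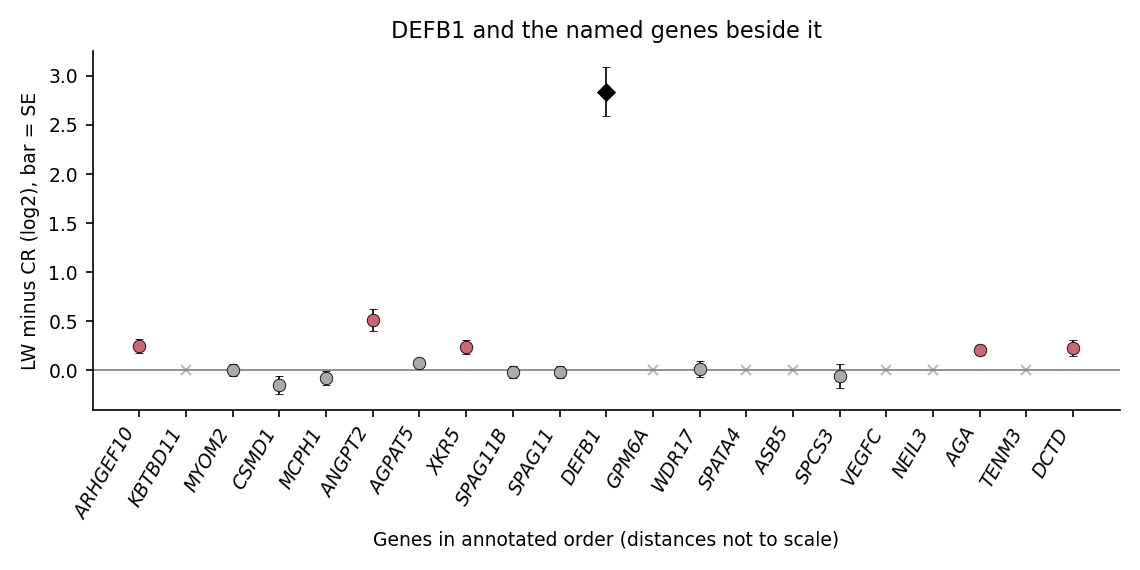
LW minus CR on the log2 scale with its SE is plotted for DEFB1 and the 10 named protein-coding genes on each side. The genes are in annotated order, with equal steps in place of distances. The black diamond is DEFB1, whose difference is given without a test. Red points passed limma, grey points did not and crosses mark genes with no tested probe. DEFB1 stands at 2.84 and the highest neighbour, ANGPT2, at 0.51.

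The genes whose levels followed DEFB1 most closely were sought over the 36 pigs by Pearson's r. All pigs share the array design and normalization, and breed enters every such r, so these are descriptions. No probe other than the second DEFB1 spot had an r over 0.9. The 4 probes with an r over 0.8, up to 0.86, had no gene name. Among the named genes the highest was KIT, the receptor of stem cell factor, at 0.78, followed by CLCA1, a secreted protein of mucous epithelia, at 0.75, KANK1 at 0.75, and DHX16, CYSLTR2, a leukotriene receptor, and SLC4A4, a bicarbonate transporter, each at 0.74. UBE2E3, KLF3 and ZNF259 stood at 0.73 and P4HA2 at 0.72. The lowest were CTSB, a lysosomal protease, at -0.80, RGP1 at -0.79, AKR1CL1 and CIDEA, a lipid droplet protein, at -0.77, and PHF2 at -0.76. Each gene is given by its probe with the most extreme r. Of the tested probes, 3 of 5 had the given sign for RGP1, 4 of 5 for KLF3 and 6 of 7 for CTSB. For the other genes named here all did. Within the LW pigs KIT had an r of 0.16 and KANK1 of -0.13, whereas SLC4A4 had 0.71 and CYSLTR2 0.67.

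After the 6 group means had been subtracted, which leaves only the variation among pigs of a group, the order was different. The highest were CMAH, an enzyme of sialic acid synthesis, at 0.68, LYVE1, a receptor of lymphatic endothelium, at 0.64, LALBA at 0.63, RAD1 at 0.63 and TMEM254 at 0.62. The lowest were SNW1, a splicing factor, at -0.72, PRKAR1A, a regulatory subunit of protein kinase A, at -0.66, HNRNPA1 at -0.63, RABEPK at -0.62 and SUSD2 at -0.61. The given sign was shared by 3 of 5 tested probes of LALBA and 3 of 6 of PRKAR1A, and by all tested probes of the others. The probes given for LALBA, LYVE1 and PRKAR1A were dim, with breed means between 5.76 and 6.33, so their r rests on little signal. These values of r are the extremes of 11140 named genes over 36 pigs, and most of the remaining variation came from the LW pigs.

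The cell types of the glands were examined by marker lists, since DEFB1 is an epithelial product in other organs. Of 11 markers of thyroid follicular cells on the array, 10 were well above background on all 36 arrays, and SLC26A4, an iodide and chloride transporter, was not on any. None of the 10 tested follicular markers was called by limma for either comparison. Their summed linear intensity ranged from 435000 to 890000 in CR and from 542000 to 802000 in LW. Such a sum follows the brightest gene of a list most, here TG. Of 12 general epithelial markers, CLDN3 and CLDN4, both tight junction proteins, were higher in LW, at 0.37 and 0.32. ELF3, an epithelial transcription factor, was lower, at -0.23. Of all tested probes 7.17% were called higher and 5.73% lower. EPCAM with 1 of 19 probes called, KRT8 with 1 of 4 and ESRP1 with 1 of 4 counted as not called. The summed intensity of the 12 markers was 125000 to 169000 among CR pigs, 143000 to 174000 among F1 pigs and 153000 to 182000 among LW pigs, so the breeds overlapped.

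For basal and squamous epithelium 0 of 5 tested genes were called, KRT1 and IVL were above background on no array, and the summed intensity was 694 to 2020 in CR and 672 to 1130 in LW. For airway and gland epithelium 0 of 7 were called. Of its 10 markers on the array 7 were well above background on all 36 arrays, and SCGB1A1, DNAI1 and BPIFB1 on none. LW minus CR had a median of 0.02 over the 7 tested genes. It ran from -0.32 for MUC1 to 1.26 for SCGB3A2 (SE 0.50, limma adjusted p = 0.0926). The sum was 33900 to 62600 in CR and 37300 to 86900 in LW. Of the 6 adipocyte markers 5 were lower in LW, beside 5.73% of all tested probes, among them PLIN1, which coats lipid droplets, at -1.20 (SE 0.18, limma adjusted p = 2.4e-05), and ADIPOQ, adiponectin, at -1.21. For LEP and CIDEC 1 of 3 tested probes was called. The sum of the 6 adipocyte markers was 15700 to 44800 among CR pigs, 19400 to 48500 among F1 pigs and 16800 to 33600 among LW pigs. It follows FABP4 most, the brightest of them, which averaged 14.17 in CR and 14.06 in LW and was not called. CXCR2 among 8 neutrophil genes was higher in LW at 0.45, and LYZ, lower in LW, was the single macrophage marker called among 10. ACTA1 among 8 muscle genes was higher at 0.22 on its brightest probe, with 6 of its 17 probes called and 9 of the same sign. Beside these single calls, 7.17% of all tested probes were called higher and 5.73% lower. None of the tested markers of lymphocytes, C cells, parathyroid or thymic epithelium was called for LW against CR. No marker on any of these lists was called for heat by limma. Within the LW pigs the correlation of a list's mean log2 level with DEFB1 lay between -0.51 for adipocytes and 0.53 for basal and squamous epithelium, as a description over 12 pigs of 1 tissue and array design. The part of these cell types in the DEFB1 difference was not tested.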

How the data were processed

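Scanner intensities of 36 pig thyroid arrays (Agilent, 1 colour) and the deposited log2 table were used. Per the file headers the intensities are pixel means and medians of each spot, its local background and a background-subtracted processed signal, none scaled between arrays, and the submitters' processing notes name Agilent Feature Extraction 10.10.1.1. The authors quantile-normalized the median intensity without background subtraction and deposited log2 values of 46097 probes. These were remade here from the scanner files, after 1319 control spots had been left out and 106 non-uniform spots set to missing, and the remade values differed by a median of 0.00556 from the deposited log2 values.

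Probes were kept for testing if the scanner software called them well above background in 5 or more of the 6 pigs of any group, and 46222 were. Between 72.8% and 80.3% of an array's probes were above background, 0 spots were saturated, and array correlations lay between 0.983 and 0.995. The number of arrays limits the precision. On a score of the 500 probes that best separated LW from CR, built without the pig scored, the breeds did not overlap, so no array went against its breed label.

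limma 3.58.1 in R 4.3.3 was used with Benjamini-Hochberg adjustment over all tested probes. The additive model had breed and temperature, and the within-breed changes and the interaction came from the model of 6 group means. Figures were drawn with matplotlib. The code was tested on simulated data. SDs describe the pigs and SEs the fitted model, and littermates were treated as independent pigs because the labels name no litter. Pen, day of slaughter, sire and dam, which the study's model includes, are not in the labels.

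Gene names came from the files and a RefSeq table (Sscrofa11.1), through accession or symbol. Where a gene had several probes the one with the highest mean was used. For the genes with the highest and lowest r it was the probe with the most extreme r. Named are the DEFB1 spots, all measured beta-defensins, called antimicrobial genes, up to 3 called genes of each other process list, the 10 neighbours on each side, and the genes with the highest and lowest r. The members and the 17 gene lists were chosen with earlier results of these data known. Alternatives were other scalings, background corrections and filters, the deposited values, slide and array position as blocks, models without breed or within 1 breed, permutation, and leaving out each pig.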

Additional observations from a re-analysis of the deposited data

Results flagged for a closer look

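Single pigs that stood apart from the other 5 of their group were sought in the 14 tested beta-defensin probes over the 6 groups, by Dixon's ratio at its 95% critical value. Of the 84 groups of values 6 held such a pig, and chance alone marks about 1 in 20 groups. For DEFB1 (first spot) these were CR replicate 4 at 24 °C, which was low at 7.14 beside a mean of 7.77 in the other 5, and F1 replicate 3 at 30 °C, which was high at 8.32 beside 7.57. The second spot read 7.14 and 8.50 in these pigs and did not pass the critical value. For PBD-2, F1 replicate 4 at 24 °C was high on both spots, at 8.25 beside 5.72 and at 7.99 beside 5.65, while its DEFB1 value was 7.88. The DEFB123-like probe was low in CR replicate 3 at 30 °C, at 5.26 beside 5.51, and the DEFB108-like probe was low in LW replicate 3 at 30 °C, at 5.24 beside 5.67. No DEFB1 value of an LW pig was marked.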

How the results depend on the processing

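The breed differences of DEFB1 moved by less than the pooled SD within groups, 0.67, in all 9 alternatives to each. LW minus CR ranged from 2.69 to 3.10, F1 minus CR from 0.08 to 0.17, F1 minus LW from -2.93 to -2.58, and F1 minus the mean of both from -1.38 to -1.23. With 1 pig left out in turn these ranged from 2.68 to 2.97, from 0.07 to 0.20, from -2.84 to -2.54 and from -1.35 to -1.21. No temperature change of DEFB1 was called in any alternative, but the small changes turned sign in some, and the cause was not tested. In F1 the change was -0.04 with slide as a random block, -0.13 with slide as a fixed block and -0.26 with position on the slide as a block. In LW it was 0.04 with slide as a fixed block and 0.16 with position as a block. With 1 pig left out the change over breeds ranged from -0.19 to 0.01, and it was above 0 only without LW replicate 2 at 24 °C. The change within CR then lay between -0.39 and -0.14, that within F1 between -0.11 and 0.11, with 4 of 36 turned in sign, and that within LW between -0.37 and 0.27, with 3 of 36 turned. The interaction's unadjusted p ranged from 0.56 to 0.956 when pigs were left out and from 0.733 to 0.959 otherwise. Chosen after seeing the data, the mean of both spots gave LW minus CR at 2.93, and leaving out the CR and F1 pigs farthest from their breeds gave 2.79. Probes called ranged from 441 to 633 for heat and from 5411 to 7218 for LW against CR, and genes of the 5 process lists called, under the 2 scalings tried for them, from 12 to 13 for LW against CR, with 1 for heat. Pairing by litter was not possible because the labels name no litter. Each pig was slaughtered at 1 temperature, and the replicate numbers only follow the order of listing and pair no pigs. The dimmest DEFB1 spot was 2.95 times its local background, so differences among CR and F1 pigs are measured with less signal than those among LW pigs.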
